A study of Mus musculus with 2 samples.

Results

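The genes described here are 7 genes of protein fucosylation and of the glycans that accept fucose: Gmds, Slc35c1, Fut8, Pofut1, Fut7, B4galt1 and St3gal6. They were chosen by symbol, because the study tags T cells by a fucosyl transfer reaction, and each symbol matched 1 of the 55357 genes in the deposited gene lists. The values are UMIs, which count captured mRNA molecules, from 2 droplet libraries of T cells of mouse ileum, named Control and SAP. The study's design text describes dendritic cells exposed in vitro to phages of healthy mice or of SAP mice and then cultured with gut T cells of GF mice, where contact between the cells leads to an enzymatic fucosyl-biotin tag on the T cell surface. The labels give each library only as Control or SAP, with no age, strain or further treatment, and they do not say whether its cells were the tagged cells, untagged cells or both. In that method the transferase sits on the surface of the dendritic cell, so UMIs of these genes count the T cells' own transcripts and not the tag.

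Fucose is added to glycans from a nucleotide-activated donor, GDP-fucose. Gmds makes the first step of the main route from GDP-mannose to GDP-fucose in the cytosol, and Slc35c1 carries GDP-fucose into the Golgi. Fut8 adds the core fucose of N-glycans, Pofut1 adds O-fucose to epidermal growth factor-like repeats such as those of Notch receptors in the endoplasmic reticulum, and Fut7 adds the outer fucose of sialyl Lewis x, the selectin ligand through which activated T cells roll on vessel walls. B4galt1 adds the galactose of N-acetyllactosamine, and St3gal6 caps such galactose with sialic acid, so both build the acceptor that an outer-arm fucosyltransferase uses.

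After filtering, 5408 Control cells with 17851805 UMIs and 4826 SAP cells with 17974150 UMIs were kept, with median depths of 3095.5 and 3374 UMIs. Each group was 1 library, so no difference has a replicate check, no test was run, and every interval is an exact 95% interval for counting error only. Levels are scaled to 1000000 UMIs of the same cells (CPM). The kit counts the 3' end of each transcript, so values were not divided by gene length. The libraries shared 6 barcodes. More SAP than Control barcodes held over 10% mitochondrial UMIs, at 3.13% against 1.10%, and these barcodes were left out. A cluster of 47 Control and 76 SAP cells with few T cell transcripts, led by Folr1 and pseudogenes, held 3.34% and 8.44% of the UMIs of its library, and it is called the non-T cluster below. It stayed in the sums over all kept cells.

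Of the 7 genes, 6 were detected in both libraries and 1, Fut7, was not. B4galt1 was the most abundant, with 1780 UMIs in Control (99.7 CPM, 95% interval 95.1 to 104) and 1536 in SAP (85.5 CPM, 81.2 to 89.8). Its mean level over the libraries was above that of 97.2% of all genes in the files. Fut8 had 488 UMIs (27.3 CPM) in Control and 560 (31.2 CPM) in SAP. St3gal6 lay beside it, with 476 UMIs (26.7 CPM) and 555 UMIs (30.9 CPM). The other 3 detected genes lay close together at a lower level, above 87.0% to 87.4% of all genes. For Slc35c1 the Control and SAP levels were 13.1 and 12.0 CPM, for Pofut1 11.7 and 13.5 CPM, and for Gmds 11.0 and 12.6 CPM. The share of the genes in the files with 0 UMIs in both libraries was 50.7%, so all 6 detected genes stood well inside the detected range.

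Fut7 had 0 UMIs in every deposited barcode of both libraries, before any filter. A count of 0 allows up to 3 UMIs, which is 0.168 CPM in Control and 0.167 CPM in SAP, or up to 0.0555% and 0.0622% of the kept cells with a UMI. The gene is listed in the deposited gene lists under an identifier that is also in GENCODE M21, where no other gene overlaps it on either strand. The version of the annotation behind the counts is not given, so overlaps in it were not checked. The related outer-arm fucosyltransferases were also at or near 0. Fut1 and Fut9 had 0 UMIs in the kept cells, Fut4 had 2 in each library, Fut2 had 1 and 4, and Sec1 had 1 in each. Fut10 had 2 UMIs in each library. Among the other fucosyltransferases, Pofut2, which adds O-fucose to thrombospondin repeats, had 35.7 and 33.5 CPM and Fut11 had 14.1 and 16 CPM. The fucosyltransferase transcripts that were detected at more than a few UMIs were thus Fut8, Pofut1, Pofut2 and Fut11.

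**Figure D1:**
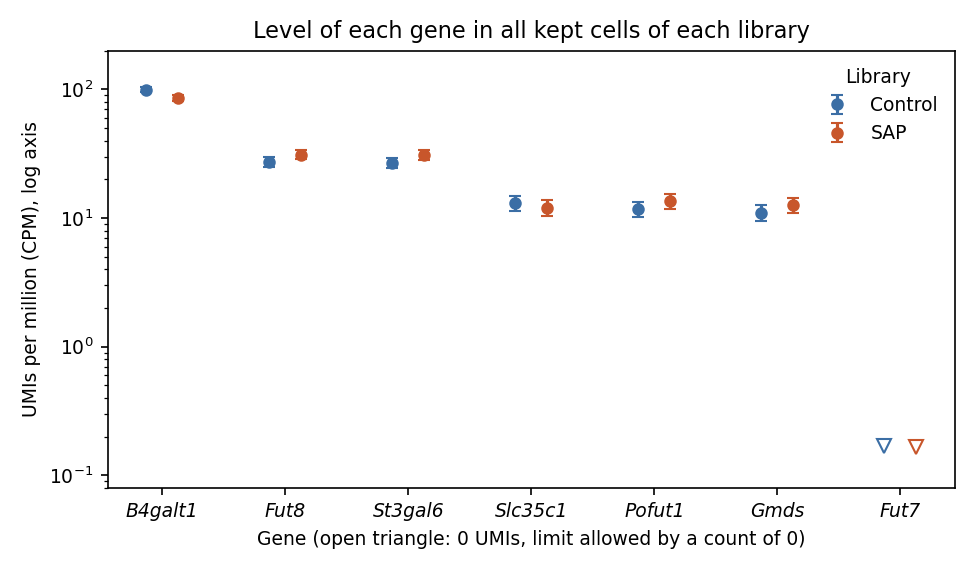
Level of each gene in all kept cells of the Control (blue) and SAP (orange) library, in CPM on a log axis, with exact 95% counting intervals. B4galt1 lies near 100 CPM, Fut8 and St3gal6 near 30 CPM, and Slc35c1, Pofut1 and Gmds near 12 CPM, and the open triangles at Fut7 mark the limit that a count of 0 allows.

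Single cells held few of these molecules. A UMI of B4galt1 was seen in 23.3% of the Control cells and 23.0% of the SAP cells, of Fut8 in 8.03% and 10.3%, and of St3gal6 in 7.56% and 9.72%. The shares for Slc35c1 were 4.07% and 4.21%, for Gmds 3.38% and 4.25%, and for Pofut1 3.59% and 4.54%. A UMI of at least 1 of the 7 genes was present in 41.4% of Control and 43.1% of SAP cells. To set the libraries on 1 depth, each cell was thinned at random to 1000 UMIs, and 507 cells of Control and 501 of SAP, which had fewer, were left out. The share of thinned cells with a UMI was then 8.86% and 8.0% for B4galt1, 2.84% and 3.17% for Fut8, and 2.71% and 3.47% for St3gal6. For Slc35c1 it was 1.35% and 1.43%, for Gmds 1.02% and 1.27%, and for Pofut1 1.49% and 1.76%.

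RNA that floats free in the droplets can give a UMI in a cell that does not make the transcript, and the non-T cluster served as a measure of it, with median depths of 2484 UMIs in Control and 16277 in SAP. Thinned to 1000 UMIs, 1 of 33 Control cells (3.03%) and 2 of 67 SAP cells (2.99%) of that cluster held B4galt1. Their intervals (0.0767% to 15.8% and 0.364% to 10.4%) included the shares over all kept cells, and St3gal6 and Pofut1 were each in 1 of the 33 Control cells, so thinned shares were not told apart from all cells at this number of cells. In sums over unthinned cells the cluster had 5.03 and 5.27 CPM of Fut8, 1.68 and 1.32 CPM of St3gal6 and 21.8 and 41.5 CPM of B4galt1, all lower than over all kept cells. Pofut1 was at 3.36 and 0.659 CPM there and Slc35c1 at 1.68 and 3.30 CPM. The Control interval of Pofut1 (0.406 to 12.1) included its level over all kept cells. Gmds had 10.1 and 9.23 CPM in the cluster, and both intervals (3.69 to 21.9 and 5.04 to 15.5) included the level over all kept cells. Levels of Gmds in both libraries and of Pofut1 in Control were therefore not told apart from those of the cluster at this depth. Cd3g, a T cell transcript, was at 148 and 55.4 CPM in the cluster, against 2608 and 2562 CPM in the Trdc gate (below). How much of the cluster's UMIs was free RNA was not tested. The cluster's cells may also express some of these genes themselves.

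The windows before the transcript start are given for 4 genes: Fut7 as the gene without a UMI, B4galt1 as the most abundant, and Fut8 and Pofut1, which had the same highest and lowest T-like clusters (below). All 7 genes matched the promoter table, which is from RefSeq on build GRCm38.p6, and the first-listed window was taken for each gene. Each is the 250 bases before the annotated start, read 5′ to 3′ on the strand of the gene, with each CpG dinucleotide in capitals. The Fut7 window is chr2:25422992-25423241 on the plus strand, that of B4galt1 chr4:40853985-40854234 on the minus strand, that of Fut8 chr12:77238489-77238738 on the plus strand and that of Pofut1 chr2:153241282-153241531 on the plus strand.
Fut7: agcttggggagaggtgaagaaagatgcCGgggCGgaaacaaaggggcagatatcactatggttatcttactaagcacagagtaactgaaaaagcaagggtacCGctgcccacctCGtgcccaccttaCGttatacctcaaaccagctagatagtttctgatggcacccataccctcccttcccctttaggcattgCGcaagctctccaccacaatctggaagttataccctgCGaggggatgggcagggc
B4galt1: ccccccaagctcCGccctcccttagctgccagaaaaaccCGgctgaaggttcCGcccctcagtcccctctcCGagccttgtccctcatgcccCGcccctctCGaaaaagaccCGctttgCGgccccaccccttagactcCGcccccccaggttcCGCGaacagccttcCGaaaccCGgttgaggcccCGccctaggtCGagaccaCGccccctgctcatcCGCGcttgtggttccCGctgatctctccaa
Fut8: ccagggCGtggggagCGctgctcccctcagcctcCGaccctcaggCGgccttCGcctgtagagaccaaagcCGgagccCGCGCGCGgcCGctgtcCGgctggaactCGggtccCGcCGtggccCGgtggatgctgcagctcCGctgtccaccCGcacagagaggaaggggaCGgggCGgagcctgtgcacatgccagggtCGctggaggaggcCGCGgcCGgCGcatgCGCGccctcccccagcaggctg
Pofut1: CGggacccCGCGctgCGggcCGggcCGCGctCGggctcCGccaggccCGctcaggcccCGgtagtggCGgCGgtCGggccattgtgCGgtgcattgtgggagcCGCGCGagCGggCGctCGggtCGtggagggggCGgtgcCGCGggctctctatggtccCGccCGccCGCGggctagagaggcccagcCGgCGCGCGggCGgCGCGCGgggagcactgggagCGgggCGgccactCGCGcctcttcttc
The Fut7 window held 7 CpG, near the median of 6 over the first-listed windows of 27025 genes. The window of B4galt1 held 19, that of Fut8 27 and that of Pofut1 41, and 19.6%, 8.16% and 1.07% of all these windows had at least as many. The letters TGTGGT, the core that RUNX factors bind, were found on either strand in the windows of Fut7 and B4galt1 and in 14.2% of all windows. The ETS core CCGGAA (12.2% of all windows), the E-box CACGTG (6.05%) and the TATA box TATAAA (13%) were in none of the 4. A match is a string of letters and no measure of binding, and counts at the 3' end do not show which start site was used. B4galt1 and Pofut1 have 1 window each in the table. The other window of Fut7 held 1 CpG, and the other 3 of Fut8 held 12, 0 and 3, with the ETS core in the first of these.

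The cells were then split by UMIs of 4 genes of T cell lineage, into gates that share no cell. The Trdc gate (Trdc encodes the constant region of the delta chain of the gamma-delta T cell receptor) held cells with at least 1 Trdc UMI and 0 of Cd8b1 and Cd4: 2232 in Control and 2022 in SAP. The Cd8b1 gate (Cd8b1 encodes the CD8 beta chain) required Cd8b1 and 0 of Trdc and Cd4, and held 541 and 548 cells. The Cd8a gate (the CD8 alpha chain) required Cd8a and 0 of the other 3, and held 1468 and 1218 cells. The Cd4 gate required Cd4 and 0 of the other 3, and held 186 and 168 cells. A further 850 and 745 cells had none of the 4 transcripts, and 131 and 125 held a mix of them that met no gate. A UMI of 0 does not show that a cell lacks the protein, so the Cd8a gate can hold cells whose Trdc or Cd8b1 went uncounted.

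Transcripts of T cells were present in all 4 gates and differed between them. Cd3g, a chain of the T cell receptor complex, was at 2608 and 2562 CPM in the Trdc gate and 844 and 921 CPM in the Cd4 gate. Cd5, a surface protein of conventional T cells, was at 3.49 and 6.06 CPM in the Trdc gate and 200 and 177 CPM in the Cd8b1 gate. The cells of the Trdc gate also held Trbc2, the beta chain's constant region, at 910 and 882 CPM. Among markers of other cell types, 11 epithelial genes summed to 217 and 294 CPM in the Trdc gate and 235 and 320 CPM in the Cd8a gate, but to 73.7 and 78.4 CPM in the Cd8b1 gate and 27.1 and 21.9 CPM in the Cd4 gate. Of these 11, 10 had a UMI in the Trdc gate of each library and 4 in the Cd4 gate. Their part in the differences between gates below was not tested. Of 9 macrophage markers, C1qa, C1qb and C1qc were at 0 in all 4 gates of both libraries. Plasma cell markers summed to 11286 CPM in the Control Cd4 gate, where 1 cell held 7492 of the 7505 Igkc UMIs and 2.27% of the UMIs of the gate, against 108 CPM in the SAP Cd4 gate. In the Trdc gate the same markers summed to 1191 CPM in Control, 721 CPM of it Igkc, and to 110 CPM in SAP, and the part of these cells in the results was not tested either.

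Of the genes that supply GDP-fucose, Slc35c1 was lowest in the Cd8b1 gate of Control and in the Cd4 gate of SAP. Its Trdc gate level was 14.8 CPM in Control (12.2 to 17.7) and 14.3 CPM in SAP (11.8 to 17.2); in the Cd8a gate 15.7 and 13.2 CPM. The Cd8b1 gate had 6.46 CPM from 12 UMIs in Control (3.34 to 11.3) and 9.80 CPM from 20 UMIs in SAP (5.99 to 15.1). The Trdc and Cd8b1 intervals were apart in Control and overlapped in SAP, and the Cd4 gate, at 9.97 and 7.83 CPM from 7 and 5 UMIs, overlapped every other gate. Gmds gave no order of gates beyond counting error: it ran from 10.2 CPM in the Trdc gate to 14.2 CPM in the Cd4 gate in Control, and from 12.0 to 20.4 CPM in the same gates in SAP, with every neighbouring pair of intervals overlapping.

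Fut8, the core fucosyltransferase, was highest in the Trdc and Cd8a gates of both libraries. The Trdc gate had 31.7 CPM in Control (27.9 to 35.9, 245 UMIs) and 37.7 CPM in SAP (33.5 to 42.3, 292 UMIs). The Cd8a gate had 30.4 and 34.1 CPM, not told apart from the Trdc gate in either library. The Cd8b1 gate had 21.0 CPM (14.9 to 28.7, 39 UMIs) and 17.6 CPM (12.4 to 24.4, 36 UMIs), and the Cd4 gate 11.4 CPM (4.92 to 22.5, 8 UMIs) and 21.9 CPM (12.0 to 36.8, 14 UMIs). The Trdc and Cd4 intervals were apart in Control and overlapped in SAP, and in SAP the Trdc and Cd8b1 intervals were apart.

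Pofut1, the O-fucosyltransferase for Notch, followed the same order as Fut8 in Control. It had 13.6 and 16.4 CPM in the Trdc gate, 13.2 and 14.9 CPM in the Cd8a gate, 7.53 and 6.86 CPM in the Cd8b1 gate (14 UMIs in each library) and 4.27 and 6.27 CPM in the Cd4 gate (3 and 4 UMIs). The ratio of the Trdc to the Cd8b1 gate was 1.80 in Control (1.03 to 3.41) and 2.39 in SAP (1.37 to 4.49). Both intervals lay above 1, though the Control one only just. The Cd4 levels rest on so few UMIs that their upper bounds, 12.5 and 16 CPM, reached the intervals of the Cd8a gate. Fut7 had 0 UMIs in each of the 4 gates.

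Of the genes that build the acceptor, St3gal6 had the clearest order, and it was the reverse of that of Fut8 between the Trdc and Cd8b1 gates. It was highest in the Cd8b1 gate, at 44.7 CPM in Control (35.6 to 55.4, 83 UMIs) and 45.1 CPM in SAP (36.3 to 55.3, 92 UMIs). The Trdc gate followed with 28.2 CPM (24.6 to 32.2) and 35.0 CPM (30.9 to 39.4), and the Cd8a gate had 22.5 CPM (18.5 to 27.2) and 25.1 CPM (20.7 to 30.1). The Cd4 gate was lowest, with 2.85 CPM from 2 UMIs in Control (0.345 to 10.3) and 15.7 CPM from 10 UMIs in SAP (7.51 to 28.8). The Cd8b1 gate lay apart from the Cd8a gate in both libraries and from the Trdc gate in Control only, and the Cd4 gate lay apart from the other 3 in Control and overlapped the Cd8a gate in SAP.

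B4galt1 differed less between the gates, and its order was another one. The Cd4 gate was highest with 128 CPM in Control (103 to 158, 90 UMIs) and 97.1 CPM in SAP (74.5 to 124, 62 UMIs). The Trdc gate had 106 CPM (98.6 to 113) and 94.1 CPM (87.4 to 101), and the Cd8b1 gate 95.8 CPM (82.2 to 111) and 67.1 CPM (56.4 to 79.3). The Cd8a gate had 79.2 CPM (71.4 to 87.5) and 76.1 CPM (68.3 to 84.5), apart from the Trdc gate in both libraries. The highest gate was 1.62 times the lowest in Control and 1.45 times in SAP.

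**Figure D2:**
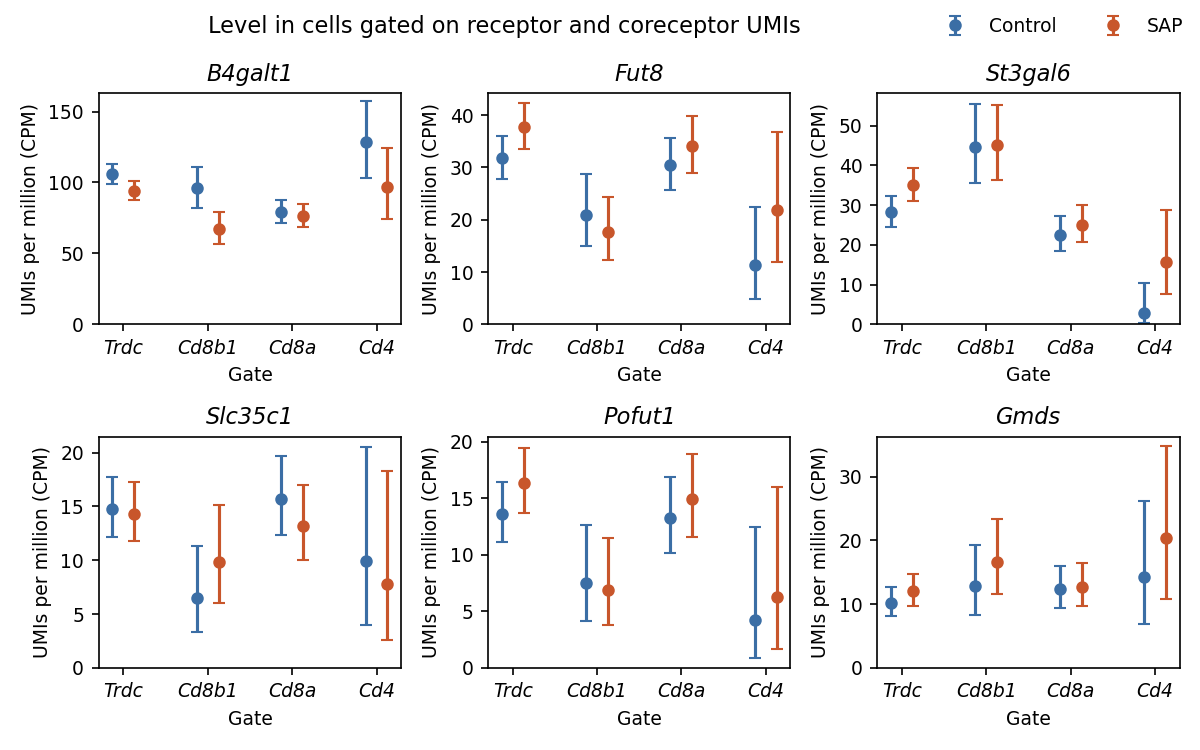
Level of the 6 detected genes in the 4 gates, in CPM with exact 95% counting intervals, for the Control (blue) and SAP (orange) library; each panel has its own axis from 0. Fut8 and Pofut1 are higher in the Trdc and Cd8a gates than in the Cd8b1 gate, St3gal6 is highest in the Cd8b1 gate, and the intervals of the Cd4 gate are wide.

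The 6 pairs of gates were compared by a fixed size: a gene was counted when its ratio was 1.5-fold or more in the same direction in both libraries. Genes entered a comparison with at least 20 CPM in 1 of the gates and 50 UMIs over both, which 3 of the 7 genes (B4galt1, Fut8 and St3gal6) met in all pairs except that Fut8 did not in Cd8b1 against Cd4. Between the Trdc and Cd8b1 gates 8.87% of 5402 genes were counted, and of the 3 genes Fut8 was, with ratios of 1.51 in Control (1.07 to 2.18) and 2.14 in SAP (1.51 to 3.11). The Control value lay just past the limit, and under 8 of 9 other settings Fut8 was under 1.5-fold in at least 1 library. Between the Trdc and Cd8a gates 2.63% of genes were counted and none of the 3. Fut8 had ratios of 1.04 and 1.11 there, with intervals of 0.847 to 1.29 and 0.907 to 1.35.

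St3gal6 was counted in each of the 3 pairs with the Cd4 gate and between Cd8a and Cd8b1. Cd8a against Cd8b1 counted 11% of genes, and St3gal6 was lower in the Cd8a gate, with ratios of 0.505 (0.376 to 0.680) and 0.556 (0.419 to 0.740). In Cd8b1 against Cd4, where 9.99% of genes were counted, its ratio was 15.7 (4.2 to 132) in Control and 2.88 (1.5 to 6.20) in SAP. Trdc against Cd4 counted 21.1% of genes and both Fut8, with ratios of 2.78 (1.39 to 6.51) and 1.72 (1.01 to 3.18), and St3gal6, with 9.90 (2.71 to 82.3) and 2.23 (1.2 to 4.71). Cd8a against Cd4 counted 22.8% of genes and the same 2 genes, with SAP ratios of 1.55 for Fut8 (0.899 to 2.91) and 1.60 for St3gal6 (0.839 to 3.43) whose intervals included 1. Read against these shares of all genes, counts of 0 to 2 among 3 genes do not set the genes apart as a group. The Cd8a against Cd4 counts held in 5 of 9 other settings for Fut8 and in 3 of 9 for St3gal6. The Control ratios of St3gal6 against the Cd4 gate rest on its 2 UMIs there. With gates set by 1 gene alone, so that a cell may be in several, St3gal6 had 12 UMIs (12.6 CPM) in the Control Cd4 gate. Its Control ratio was then 3.52 for Cd8b1 over Cd4 and 2.28 for Trdc over Cd4, still past 1.5-fold.

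The 13 clusters give a finer division of the same cells, and 10 of them were T-like, carrying T cell markers and no larger set of another class, with a limit on depth. The clusters were made from variable genes of the same cells, so the levels are a description. Among the 10 T-like clusters Fut8 was highest in cluster 1, led by Itih5, Ptpn5 and Sh3bp2, at 48.8 CPM in Control (40.7 to 57.9) and 63.9 CPM in SAP (55.4 to 73.5). It was lowest among them in cluster 8, led by Abcb1b, Cd5 and Cd6, at 8.55 and 8.84 CPM. Among the same 10 clusters, cluster 1 also had the highest Pofut1 level of both libraries, 28.0 and 27.0 CPM, and cluster 8 the lowest, 4.99 and 4.91 CPM, with intervals apart. Cells of the Trdc gate made up 53.6% and 55.4% of cluster 1, and cells of the Cd8b1 gate 0.236% and 0.525%.

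Among the T-like clusters St3gal6 was highest in cluster 4, led by Cd8b1 and Ifng, with 51.1 CPM in Control (41.0 to 62.9) and 55.0 CPM in SAP (45.4 to 66.1). That cluster held 38.3% and 48.2% of the cells of the Cd8b1 gate. Cluster 8 held a further 30.9% and 21.4% of them, and its St3gal6 level was 21.4 CPM in Control and 37.3 CPM in SAP. In Control St3gal6 was lowest among the T-like clusters in cluster 6, led by Il17a, Il18r1 and Tnfrsf4, with 9.65 CPM (5.40 to 15.9). There SAP had 24.7 CPM (17.5 to 33.9). Cluster 6 held 72.6% and 74.4% of the cells of the Cd4 gate. B4galt1 was high in that cluster, with 154 and 126 CPM, and in cluster 2, led by Mt1, Defa24 and Trf, with 157 and 126 CPM. Cluster 7, led by Xcl1, Lgals2 and Gm19590, had 125 and 128 CPM, the latter the highest T-like level in SAP. Cluster 1 had 76.0 and 72.3 CPM of B4galt1. Cluster 5 was shallow, with a median depth of 1001.5 UMIs and 4.03% from mitochondrial genes. It missed the rule for T-like clusters by its depth, though its T cell markers summed to 11534 CPM. Fut8 was at 57.2 and 58.5 CPM there, Pofut1 at 27.3 and 30.1 CPM, and St3gal6 at 49.4 and 42.7 CPM.

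**Figure D3:**
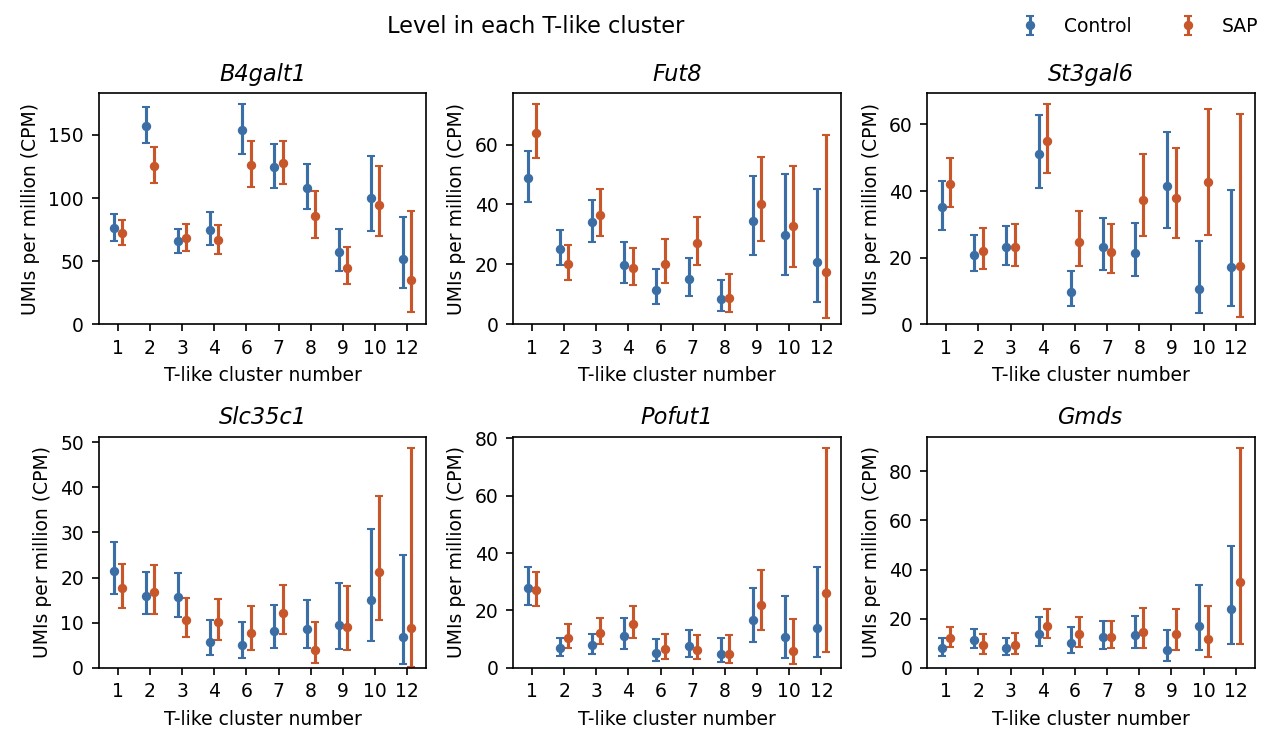
Level of the 6 detected genes in the 10 T-like clusters, in CPM with exact 95% counting intervals, for the Control (blue) and SAP (orange) library; each panel has its own axis from 0. Cluster 1 is highest for Fut8, cluster 4 for St3gal6, and clusters 2, 6 and 7 lie above the others for B4galt1.

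Levels also differed with transcripts of activation, read over all kept cells without regard to gate or cluster. Ifng was among the top genes of cluster 4, beside Cd8b1, and Tnfrsf9 among those of cluster 2. These splits therefore also divide the clusters, and the part of cell type in the ratios was not tested. Ifng encodes interferon gamma, and cells with an Ifng UMI had B4galt1 at 0.845 (0.752 to 0.947) times the level of cells without one in Control and 0.836 times (0.736 to 0.947) in SAP. St3gal6 was higher with Ifng in SAP, at 1.46 times (1.21 to 1.75), and in Control the ratio was 1.18 with an interval that included 1 (0.954 to 1.44). Cells with a UMI of Tnfrsf9, which encodes the costimulatory receptor 4-1BB, had St3gal6 at 0.589 times (0.454 to 0.755) and 0.690 times (0.540 to 0.872) and B4galt1 at 1.17 times (1.05 to 1.30) and 1.13 times (1.0 to 1.28). The ratios of St3gal6 and B4galt1 lay on opposite sides of 1 for Ifng and Tnfrsf9 in both libraries, but on the same side for the next 2 transcripts. With Mki67, a marker of dividing cells, B4galt1 was at 0.661 times (0.487 to 0.877) and 0.720 times (0.529 to 0.960) and St3gal6 at 0.865 (0.499 to 1.40) and 0.749 times (0.440 to 1.19). Gmds with Mki67 was at 1.52 (0.772 to 2.72) and 1.82 times (1.04 to 2.98). Slc35c1 with Mki67 was at 0.304 (0.0623 to 0.901), from 3 UMIs, in Control and 1.08 times (0.512 to 2.03) in SAP. With Xcl1, a chemokine transcript, B4galt1 was at 1.13 (0.998 to 1.27) and 1.29 times (1.14 to 1.46) and St3gal6 at 1.06 (0.825 to 1.35) and 1.27 times (1.03 to 1.56). Slc35c1 with Xcl1 was at 0.531 (0.326 to 0.825) and 0.944 times (0.644 to 1.35). Pofut1 with Xcl1 was at 0.723 (0.460 to 1.09) and 0.598 times (0.388 to 0.888). The interval of Fut8 included 1 for each of these 4 transcripts in both libraries. Depth also differed with each split: cells with an Ifng UMI had a median of 3304 UMIs in Control against 3042 without. The gap was larger for the other transcripts. For Tnfrsf9 the medians were 3707 against 2920 in Control and 4297 against 3166.5 in SAP. For Mki67 they were 4119.5 against 3075.5 in Control and 4333 against 3353 in SAP.

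Genes that supply or use the same building blocks were read from lists by function. Beside their gate ratios, 21.1% of all genes compared were past 1.5-fold in both libraries in Trdc against Cd4, and 22.8% in Cd8a against Cd4. The shares were 8.87% in Trdc against Cd8b1 and 11% in Cd8a against Cd8b1. A gene could enter by its level in 1 gate alone, so the other gate may hold few UMIs. Of 11 listed genes of GDP-fucose supply and transport found in the files, 2 were abundant enough to compare between libraries: Pmm2, which makes mannose-1-phosphate, at 26.3 and 28.7 CPM, and Gfus, which completes GDP-fucose, at 21.3 and 23.9 CPM. Fcsk, the kinase that salvages free fucose, had 1.90 and 2.0 CPM. Neither was past 1.2-fold between libraries or past 1.5-fold between any pair of gates. The fucosidases Fuca1, at 36.7 and 37.1 CPM, and Fuca2, at 27.4 and 28.7 CPM, remove fucose in lysosomes or outside the cell. Fuca2 was 5.27 (2.03 to 19.5) and 2.16 (1.16 to 4.55) times as high in the Trdc as in the Cd4 gate.

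Within the galactosyltransferase family B4galt1 was the most abundant, followed by B4galt5 at 28.9 and 27.2 CPM. B4galt5 had 4 and 2 UMIs in the Cd4 gate, and its Trdc over Cd4 ratio was 5.86 (2.26 to 21.7) and 9.02 (2.47 to 75.0), while B4galt1 had 0.824 (0.662 to 1.04) and 0.969 (0.747 to 1.28). Among 8 sialyltransferases St3gal6 was the most abundant, and St3gal1, which caps galactose of O-glycans, had 15.3 and 13.7 CPM. St3gal1 was lower in the Trdc than in the Cd4 gate, with ratios of 0.407 (0.257 to 0.670) and 0.555 (0.321 to 1.03), opposite in direction to St3gal6. Cmas, which activates sialic acid, was lower in the Cd8a than in the Cd4 gate, at 0.633 (0.431 to 0.954) and 0.432 times (0.313 to 0.605).

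Of 8 listed O-glycan enzymes, 5 were abundant enough to compare between the Trdc and Cd8b1 gates. Among them Gcnt1, which starts the branched core that carries sialyl Lewis x on O-glycans, differed most between gates. It had 24.5 and 24.6 CPM in the Trdc gate and 2.69 and 2.94 CPM, from 5 and 6 UMIs, in the Cd8b1 gate, a ratio of 9.09 (3.83 to 28.3) and 8.38 (3.78 to 23.1). Its Cd8a over Cd8b1 ratio was 11.2 (4.70 to 35.1) and 10.4 (4.66 to 28.8). Gcnt2 was the most abundant of the list at 150 and 137 CPM. Galnt1 was past 1.5-fold over the Cd4 gate in the Trdc and Cd8a gates. Of 15 genes of N-glycan branching, 6 were abundant enough to compare the Trdc and Cd8a gates with the Cd4 gate. Mgat4a and Slc35a2 were higher and Man2a2 lower in the Trdc and Cd8a gates than in the Cd4 gate. Man2a2 was at 0.407 and 0.317 times in the Trdc gate. Lfng, which extends the O-fucose that Pofut1 adds to Notch, was 3.45 (1.80 to 7.61) and 3.43 (1.72 to 8.01) times as high in the Trdc as in the Cd4 gate. Notch1 had 43.2 and 43.3 CPM over all kept cells. Of the glycan carriers, Selplg, the core protein of the P-selectin ligand, was at 387 and 326 CPM, Ptprc (CD45) at 1335 and 1418 CPM, and Cd44 was lower in the Trdc than in the Cd8b1 gate, at 0.630 (0.477 to 0.840) and 0.421 times (0.331 to 0.538).

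**Figure D4:**
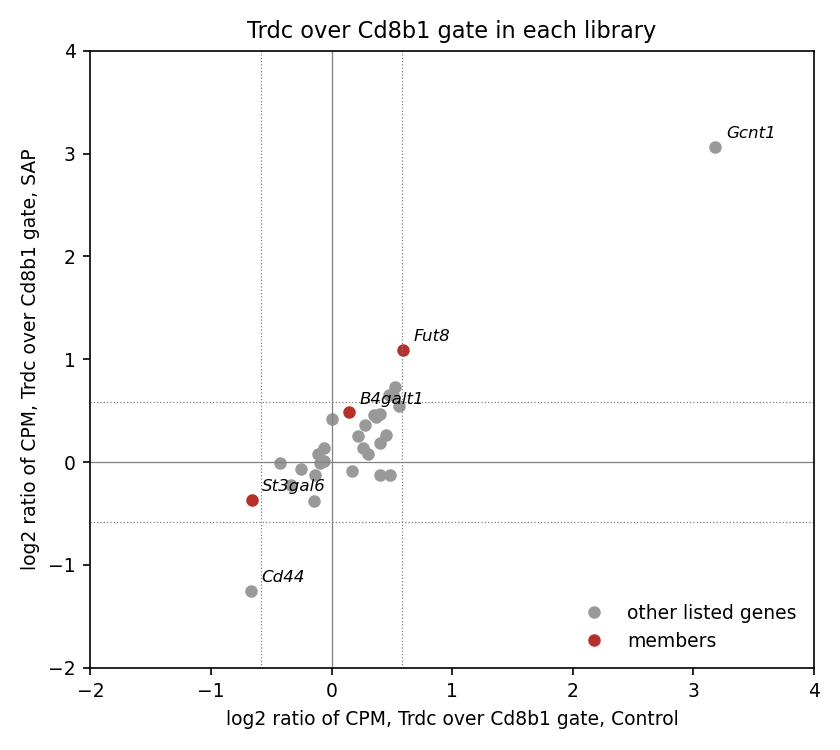
Trdc over Cd8b1 gate ratio of each listed gene with enough UMIs, as log2, in Control (horizontal axis) and SAP (vertical axis); the members Fut8, B4galt1 and St3gal6 are red, other listed genes grey, and dotted lines mark 1.5-fold either way. Gcnt1 lies far above the others, Fut8 lies past 1.5-fold in both libraries with Control at the line, and Cd44 lies below it in both.

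Between the libraries the differences were small. B4galt1 was lower in SAP, with a ratio to Control of 0.857 (0.80 to 0.918), while Fut8 had 1.14 (1.01 to 1.29) and St3gal6 1.16 (1.02 to 1.31). None of these 3 genes was past 1.2-fold, against 16.3% of the 5722 genes compared (774 higher and 157 lower). That split turns on the scaling: with TMM factors 443 genes were higher and 503 lower, and with median-of-ratios factors 501 and 386. The median log2 ratio was 0.19 over the 3 genes and 0.04 over all genes compared. Slc35c1 had 0.921 (0.762 to 1.11), Gmds 1.15 (0.942 to 1.39) and Pofut1 1.15 (0.952 to 1.39), each with an interval that included 1. The libraries may differ by more than their treatment, since each group is 1 library, and fewer cells of a type and less RNA per cell cannot be told apart in these sums.

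B4galt1 was lower in SAP in 6 of 6 gate classes, counting the cells with none of the 4 transcripts and those whose mix met no gate. The ratio was 0.890 (0.804 to 0.984) in the Trdc gate, 0.961 (0.828 to 1.11) in Cd8a, 0.701 (0.557 to 0.881) in Cd8b1 and 0.757 (0.539 to 1.06) in Cd4. It was also lower in 8 of 10 T-like clusters. Cluster 2, where B4galt1 was high, made up 15.8% of Control and 12.8% of SAP cells. With the shares of the T-like clusters held at those of Control, the ratio over these clusters alone was 0.881. Without that step the log2 ratio was -0.198 in T-like clusters and -0.223 over all kept cells, so the change of cells also moved it. Fut8 was lower in SAP in the Cd8b1 gate, at 0.841 (0.519 to 1.36), and higher in the other 5 classes, with an interval that included 1 in each of the 4 gates. St3gal6 was at 1.24 (1.03 to 1.49) in the Trdc gate and 1.01 (0.742 to 1.37) in Cd8b1. Its ratio of 5.50 in the Cd4 gate came from 2 and 10 UMIs and had an interval of 1.17 to 51.6, and with single-gene gates it was 1.65, from 12 and 20 UMIs.

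These ratios moved with the cells and the scaling used. Without the non-T cluster, Fut8 was at 1.19, under 1.2-fold, and St3gal6 at 1.22, just past it. In cells of T-like clusters only, which leaves out the shallow cluster 5 and cluster 13, led by Igkc and Ighg2b, as well, Fut8 was at 1.22 and St3gal6 at 1.25, both past 1.2-fold, against 8.82% of genes compared there. With TMM factors, under which SAP sums are scaled by 1.07, they were at 1.06 and 1.08 and B4galt1 at 0.798, past 1.2-fold. B4galt1 stayed under 1 and Fut8 and St3gal6 over 1 in all 9 settings tried. Of the other listed genes abundant enough to compare, Nans, Galnt1 and Notch2 were past 1.2-fold, with SAP over Control ratios of 1.23, 1.24 and 1.25. In T-like clusters these were 1.03, 1.11 and 0.977, and the non-T cluster held them at 198 and 237, 188 and 234, and 163 and 161 CPM. Selplg was at 0.844 (0.815 to 0.874), not past 1.2-fold.

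**Figure D5:**
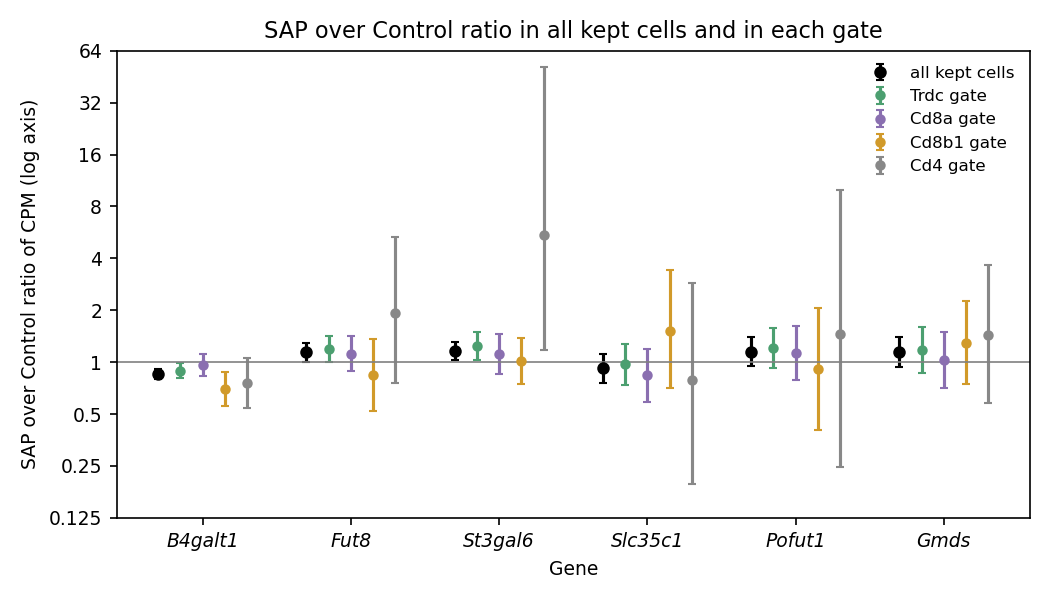
SAP over Control ratio of the 6 detected genes in all kept cells and in each of the 4 gates, on a log axis with exact 95% counting intervals; the line marks 1. The B4galt1 points all lie under 1, those of Fut8 and St3gal6 over all kept cells lie above 1, and most intervals of the Cd4 gate span more than 4-fold.

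For the 3 genes above 20 CPM, the genes with the most similar profile were sought over 10 profiles, the 4 gates and the cells with none of the 4 transcripts in each library, by Pearson's r of log2(CPM + 5) among 5348 genes. The profiles share their libraries and the gates differ in depth, so r is a description. Fut8 was most like Ehd4 (r = 0.98), Acoxl (0.97) and Bnip3l (0.96). St3gal6 was most like Ddx47 (0.96), Fasl (0.96), which encodes the death ligand of cytotoxic T cells, and Ap1ar (0.94). B4galt1 was most like Pym1 (0.95), B9d2 (0.87) and Setd1b (0.87), so its nearest genes after Pym1 were less alike than those of the other pair.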

How the data were processed

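Per the labels' protocols, each group was 1 library of ileal T cells from the 3' kit (V3) of 10x Genomics. The authors deposited raw counts (UMIs for each gene in each barcode). The file headers name Cell Ranger 7.1.0, the submitters' processing notes name mm10 and Seurat, and the annotation version is not given in the sources used here. Every deposited barcode had at least 500 UMIs.

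Barcodes with at least 500 UMIs, 300 genes and at most 10% mitochondrial UMIs were kept. Scrublet (scanpy 1.11.5) marked 1 barcode per library by its own threshold, so the top scores were removed at 0.8% per 1000 barcodes (257 Control, 202 SAP). Clusters came from 2000 variable genes, 30 components, 15 neighbours and Leiden resolution 0.8 (leidenalg 0.10.2) over both libraries. A T-like cluster had T cell markers and fewer than 3 markers of another class among its top 10 genes. It also had a median depth above a floor set from the library medians, or a T cell marker among those top genes. The limit on markers of another class was set after the clusters were seen. Intervals were exact Poisson, Clopper-Pearson and conditional binomial (scipy 1.17.1). Those of ratios were run on simulated Poisson counts of 5347 genes, where they covered 95.2% of library ratios and 95.7% of gate ratios. The simulated counts held no spread between cells or libraries, so such coverage was set by the design and checks the calculation only. The text names the 7 genes, up to 3 of the most abundant genes of each list and any past the limit in a comparison. The remaining fucosyltransferases, Fcsk and St3gal1 are given to complete their families, and B4galt2, B4galt6 and Mgat4b for their library ratios. The 7 genes and the 11 lists were chosen with earlier results of these data known. Alternatives changed barcode filters, doublet removal, scaling, the genes in the sum, gate definitions, depth and cell sets.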

Additional observations from a re-analysis of the deposited data

How the results depend on the processing

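No SAP over Control ratio of the 6 detected genes changed direction, over 54 recomputed values: doublets kept, no barcode filter, T-like clusters only, TMM factors, median-of-ratios factors, mitochondrial and ribosomal genes left out, mean over cells, the non-T cluster left out, and cluster shares held at those of Control. These last 2 settings were chosen after seeing the data, as was the check of Nans, Galnt1 and Notch2 in T-like clusters. Among those of the 7 genes abundant enough to compare, the number past 1.2-fold between libraries was 0. It became 2 in T-like clusters (Fut8 and St3gal6), 1 with TMM factors and 1 with median-of-ratios factors (B4galt1). Without the non-T cluster it became 1 (St3gal6). Pofut1 and Gmds, too low to enter that count, reached ratios of 1.36 and 1.22 as means over cells. Between the Trdc and Cd8b1 gates the count of 1 (Fut8) became 0 with doublets kept, with no barcode filter, in T-like clusters, with TMM factors, with median-of-ratios factors, without mitochondrial and ribosomal genes, with gates at 2 UMIs and with single-gene gates. Between Cd8a and Cd4 the count of 2 became 1 with no barcode filter (Fut8), 0 with TMM factors, 0 with median-of-ratios factors, 0 without mitochondrial and ribosomal genes, 1 with gates at 2 UMIs (Fut8) and 0 in cells with 2000 to 8000 UMIs. Between Cd8a and Cd8b1 the count of 1 became 0 with single-gene gates. In cells with 2000 to 8000 UMIs it became 2, as did that between Cd8b1 and Cd4 (St3gal6 and B4galt1), and that between Trdc and Cd4 became 1 (St3gal6). Without mitochondrial and ribosomal genes the Trdc and Cd4 count became 3, with Gmds beside Fut8 and St3gal6. St3gal6 kept its place in Trdc against Cd4 and in Cd8b1 against Cd4 in 9 of 9 settings, though its Control ratios fell to 2.28 and 3.52 with single-gene gates. The causes were not tested. Of 432 recomputed gate levels 398 moved by less than their counting interval. Without a filter on low values, 59.1% of genes passed 1.2-fold. Thinned to 2000 UMIs, the shares of cells were, in Control and SAP, 4.77% and 6.35% for Fut8, 4.75% and 6.14% for St3gal6, 16.9% and 15.7% for B4galt1, 2.52% and 2.03% for Slc35c1, 1.96% and 2.14% for Gmds, and 1.96% and 2.30% for Pofut1. Depth limits most the Cd4 gate, where the 6 detected genes had 2 to 90 UMIs a library, and Fut7, for which only an upper limit is given.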
